A study of Mus musculus with 44 samples.

Results

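The PA-tagged SMAD3 peaks of GDF9-treated and vehicle-treated granulosa cells were compared. They come from CUT&RUN with an antibody against the PA tag in the Smad3PA/PA mouse line, in which both copies of Smad3 carry this short epitope, and comprise GDF9 replicates 1 and 2 and vehicle replicates 1 and 2. All deposited peaks of the stringent calls on chromosomes 1 to 19 and X were taken, which gave 306258 peaks in 4 lists, out of 1775188 peaks in the 32 lists of the series and 4 of its 44 samples. The study profiled primary granulosa cells of the Smad3PA/PA and Smad2HA/+ lines with antibodies against SMAD proteins, tags and H3K27ac, and sequenced RNA of 4 Smad3PA/PA cultures. The mice were females aged 3 to 4 weeks on a mixed genetic background of C57BL/6J and a second strain, primed with pregnant mare serum gonadotropin, and their cells, in pooled cultures from 8 mice, received mouse GDF9 or vehicle for 4 h. Both groups of the PA comparison thus carry the tag on both alleles, also the vehicle controls. The series holds no library of the PA antibody in cells without this tag. The study's methods call the replicates biological, but whether each is a pool of its own is not given in the sources used here, and the spread between them may be partly technical, which p-values here cannot tell apart.

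SMAD3 is a receptor-regulated transcription factor. GDF9, a growth factor secreted by the oocyte, binds receptors on the surrounding granulosa cells, and the activated receptors phosphorylate SMAD2 and SMAD3, which join SMAD4, enter the nucleus and bind short DNA elements such as CAGAC, mostly beside other factors. In CUT&RUN, a nuclease held by the antibody cuts DNA around the bound protein, and a peak is a stretch where the released fragments pile up. The height of a peak is given below as the number of overlapping fragments at its maximum, obtained by dividing the deposited maximum signal by the size of the spike-in scaling step of that list, and its rank is its position in its own list by total signal.

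The sequences below lie under some of the highest-ranking regions of all 4 lists, of both GDF9 lists alone and of both vehicle lists alone. Each is the plus strand of GRCm38 (mm10), 121 bases at the center of the maximum. Capitals mark the SMAD core CAGAC or its complement GTCTG. Places named are those of the whole region, not of the window. The region labelled exon of Soga3 overlaps Soga3 and Gm9996, and the exon may be of either.
All 4 lists, Gm10800, chr2:98667077-98667197: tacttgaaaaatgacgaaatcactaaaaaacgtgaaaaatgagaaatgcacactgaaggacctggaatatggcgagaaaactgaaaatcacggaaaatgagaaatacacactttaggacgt
Both GDF9 lists alone, Gm18728, chr1:103238989-103239109: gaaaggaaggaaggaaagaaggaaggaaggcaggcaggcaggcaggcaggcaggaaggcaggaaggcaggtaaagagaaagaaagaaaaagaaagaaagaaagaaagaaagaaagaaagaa
Both GDF9 lists alone, intron of Atp8a2, chr14:60040721-60040841: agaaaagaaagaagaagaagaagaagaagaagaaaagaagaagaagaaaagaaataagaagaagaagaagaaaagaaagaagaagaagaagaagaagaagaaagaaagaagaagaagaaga
Both GDF9 lists alone, intergenic, chromosome 7, chr7:37167335-37167455: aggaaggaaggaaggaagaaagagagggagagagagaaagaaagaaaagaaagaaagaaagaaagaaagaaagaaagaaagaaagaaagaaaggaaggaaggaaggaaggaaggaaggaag
Both GDF9 lists alone, intergenic, chromosome 3, chr3:15334106-15334226: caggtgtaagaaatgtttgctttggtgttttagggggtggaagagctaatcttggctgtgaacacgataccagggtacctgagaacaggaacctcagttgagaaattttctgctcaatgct
Both vehicle lists alone, intergenic, chromosome 2, chr2:56800107-56800227: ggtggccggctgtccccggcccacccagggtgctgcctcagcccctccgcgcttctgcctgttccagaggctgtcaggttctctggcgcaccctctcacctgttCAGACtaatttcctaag
Both vehicle lists alone, exon of Soga3, chr10:29143137-29143257: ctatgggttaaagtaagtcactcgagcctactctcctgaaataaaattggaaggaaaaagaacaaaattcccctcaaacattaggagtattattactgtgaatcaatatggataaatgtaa
Both vehicle lists alone, intron of Tbc1d5, chr17:50960402-50960522: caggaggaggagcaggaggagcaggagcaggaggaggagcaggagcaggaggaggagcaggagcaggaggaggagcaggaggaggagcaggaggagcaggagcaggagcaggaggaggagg
Of these 8 windows, 1 held a core. The Gm10800 window lies wholly in masked repeats, and so do the first 3 windows of GDF9 cells, which are 92.6%, 99.2% and 100% purines (A or G). Among the vehicle windows, those of chromosome 2 and Tbc1d5 also lie wholly in masked repeats, and the latter is 89.3% purines. Of the windows of these 2 sets not printed, that in the GDF9 region chr3:147666549-147668418 is 99.2% purines. Those of the vehicle regions near Mup5 and in Scube2 are 52.9% and 56.2% purines on 1 strand.

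With GDF9, 80128 peaks were listed in replicate 1 and 83572 in replicate 2. With vehicle, replicate 1 had 82425 peaks and replicate 2 had 60133. The 3 longer lists were thus of like size, and the vehicle mean of 71279 ± 15763 (SD, n = 2) lay below the GDF9 mean of 81850 ± 2435 through vehicle replicate 2 (exact permutation test over the 4 libraries, two-sided, p = 0.667). With 2 libraries against 2 this test has 6 arrangements and cannot give a p under 0.333. The libraries also differed in spike-in, with 334420 and 393020 fragments mapped to E. coli in the GDF9 libraries and 360049 and 645810 in the vehicle libraries, as read from the scaling step. Without vehicle replicate 2 the difference in number turned, to −575 peaks. The depth in mouse fragments is unknown from these lists.

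Peaks were low and narrow in every list. The median height was 5 fragments in each of the 4 lists, and peaks of at most 6 fragments made up 90.6% and 77.3% of the GDF9 lists and 85.8% and 86.8% of the vehicle lists. Tall peaks, of at least 10 fragments, numbered 1207 and 2377 with GDF9 and 1619 and 1268 with vehicle. The SMAD and HA lists of the Smad2HA/+ line had median heights of 10 to 17 fragments, and the SMAD2 and SMAD4 lists of the Smad3PA/PA line 3 to 5. Median width was 541 and 726 bp with GDF9 and 630 and 559 bp with vehicle, so the groups overlapped (difference 39 bp, exact permutation p = 1, and −53.5 bp without GDF9 replicate 2). Bases under peaks came to 45.7 and 64.5 Mb with GDF9 and 54.9 and 35.3 Mb with vehicle (exact permutation p = 0.667). GDF9 replicate 2 had the widest peaks, the most tall peaks and the most bases.

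Signal within a list was held by a few places. The 10 peaks of highest total signal held 80.2% and 78.5% of all fragment-bases under peaks in the GDF9 lists and 80.4% and 85.0% in the vehicle lists. Wider peaks tended to be lower, with a Spearman's rho of height and width from −0.42 to −0.31 across the peaks of a list, which share their library and a common minimum of total signal. That minimum was 987, 1477, 1204 and 1052 fragment-bases, so a peak of few fragments was listed only if it was wide.

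**Figure D1:**
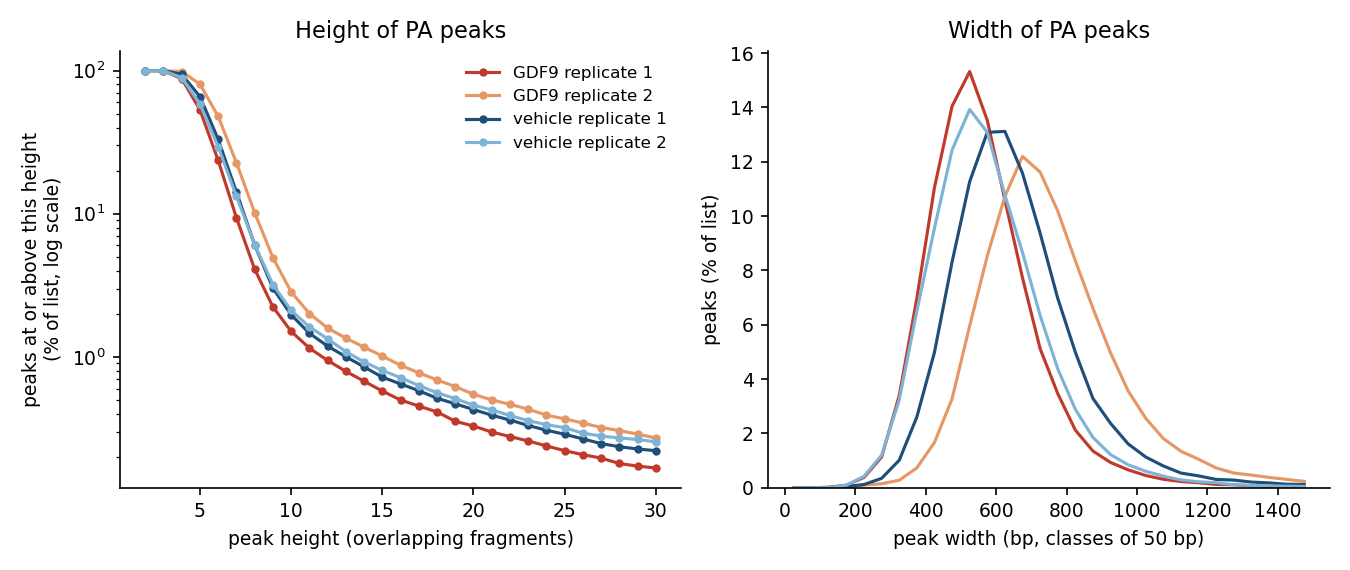
Share of PA peaks at or above each height (left, fragments, log scale of percent) and share of peaks by width in classes of 50 bp (right), with 1 line per library. In all 4 lists the median height was 5 fragments, and the median width ranged from 541 to 726 bp, with GDF9 replicate 2 the widest.

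Few peaks of a list were met, that is, overlapped by at least 1 bp, in another. GDF9 replicate 1 was met at 13.1% of its peaks by GDF9 replicate 2, at 11.1% by vehicle replicate 1 and at 4.70% by vehicle replicate 2. GDF9 replicate 2 was met at 11.9% by GDF9 replicate 1, at 12.5% by vehicle replicate 1 and at 5.35% by vehicle replicate 2. The list of vehicle replicate 1 therefore met GDF9 replicate 2 somewhat more often than the other GDF9 list did. Peaks of vehicle replicate 1 were met at 10.4% and 12.9% by the GDF9 lists and at 5.49% by the other vehicle list. Peaks of vehicle replicate 2 were met at 6.43%, 8.15% and 7.97%. For scale, the bases at which a peak of median width would touch a peak of the other list made up from 2.63% to 4.53% of the sequenced genome, and the shares met were from 1.76 to 3.08 times these.

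Overlap depended on height. At heights of 1 to 6 fragments, from 2.85% to 13.8% of peaks were met in any given other list, and at 7 to 9 fragments from 5.59% to 24.1%. At 10 to 14 fragments the shares were 33.1% to 78.1%, lowest for GDF9 replicate 2 searched in vehicle replicate 2. At 15 to 29 fragments they were 67.4% to 96.3%, and at 30 fragments or more 86.7% to 100%. Most peaks of 15 fragments or more thus recurred in each list searched, of the same or the opposite treatment. Of all tall peaks of GDF9 replicate 2, 47.1% were met in vehicle replicate 2, and 583 were in regions of no other list. Ranks gave the same order: among the 10% of a list with the highest total signal 17.2% to 35.2% of peaks were met in another list, and in the following classes of 10% each 2.58% to 15.2%.

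**Figure D2:**
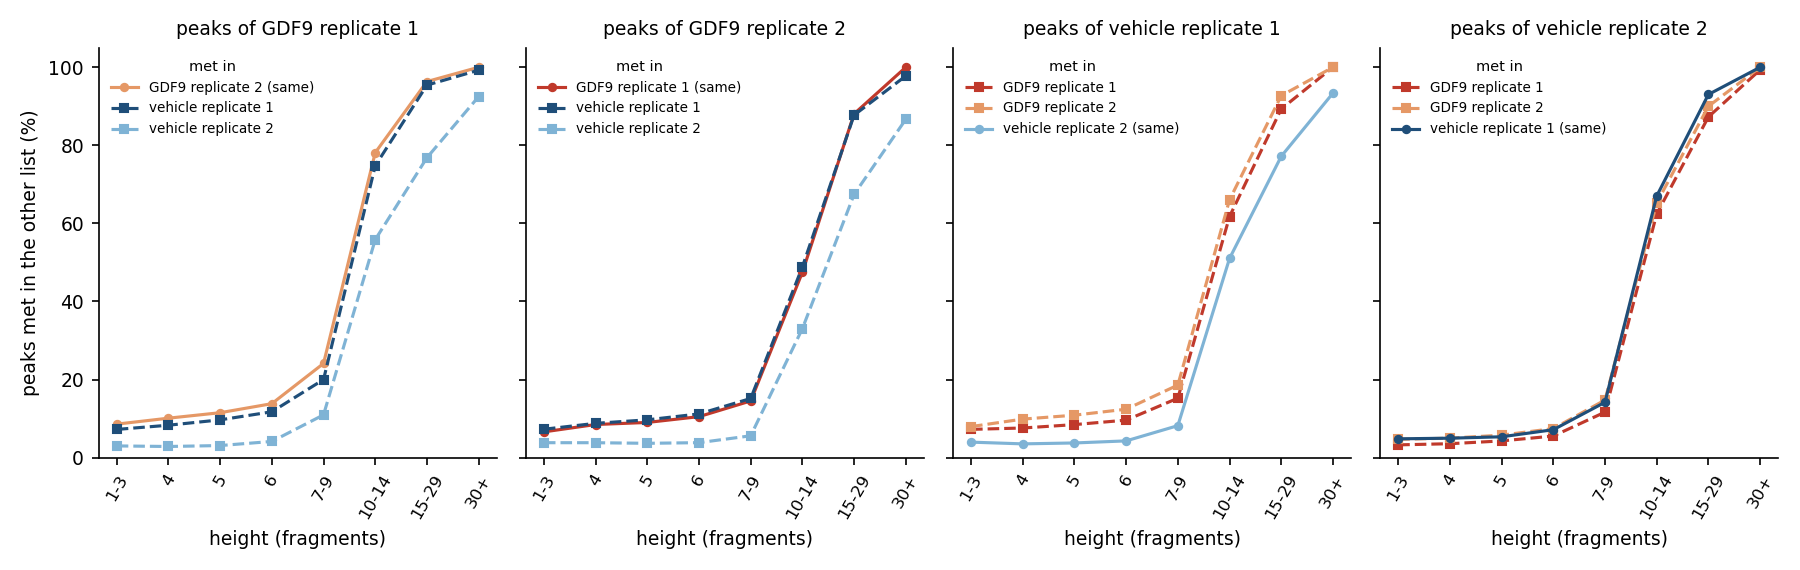
Percent of the PA peaks of each list (4 panels) that overlap a peak of each other list, by height class in fragments; solid lines mark the list of the same treatment. The shares stay under 25% up to 9 fragments and reach 86.7% or more at 30 fragments, and the line of the same treatment is not the upper line in every panel.

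Regions were formed where peaks of both replicates of a treatment overlapped. GDF9 cells had 9647 regions and vehicle cells 4301, and 6239 of the former (64.7%) had no vehicle peak, whereas 2243 of the latter (52.2%) had no GDF9 peak. There is 1 count per treatment, so these counts have no test. The counts for the other pairings of the 4 lists give their scale. Of 269053 regions in the union of all lists, 6407 held GDF9 replicate 2 and vehicle replicate 1 alone, 4932 GDF9 replicate 1 and vehicle replicate 1 alone, 2241 GDF9 replicate 2 and vehicle replicate 2 alone and 1623 GDF9 replicate 1 and vehicle replicate 2 alone. A pair of opposite treatments thus had more regions of its own than the pair of GDF9 lists, and the 3 pairs with vehicle replicate 2, the shortest list, had the fewest. With at least 10 fragments in both lists, the pair of GDF9 lists had 34 regions of its own, the pair of vehicle lists 21, and the 4 mixed pairs 8 to 38.

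**Figure D3:**
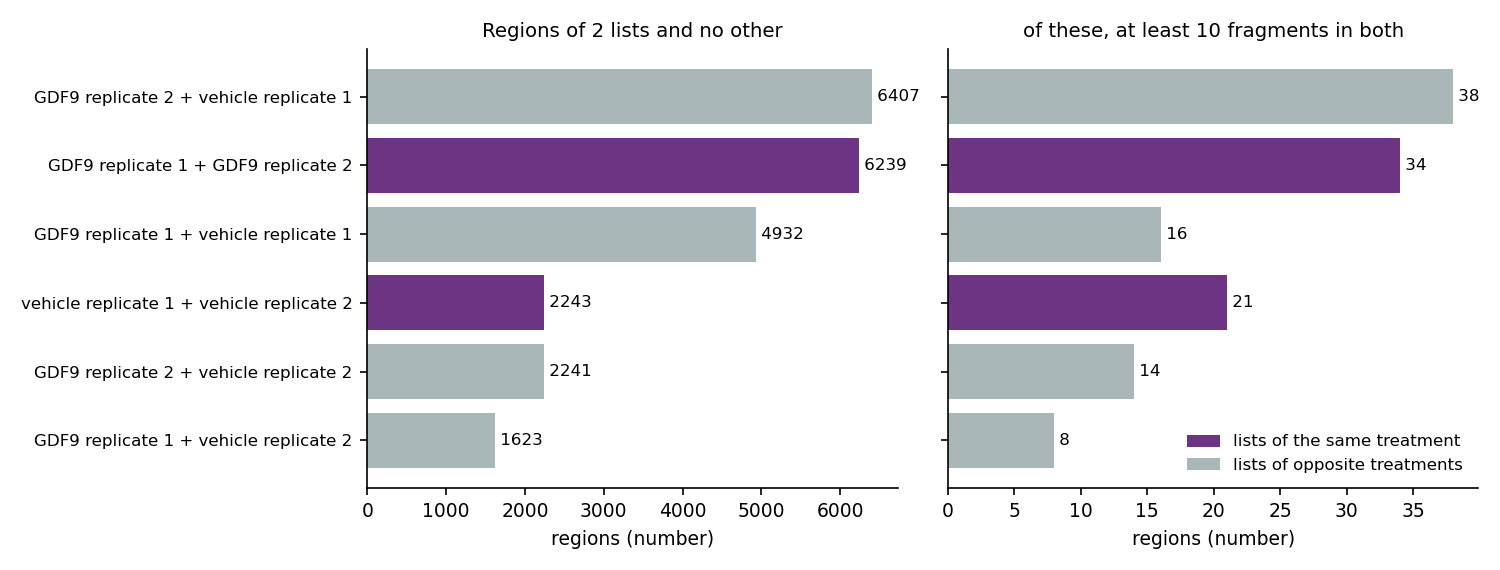
Number of PA regions with a peak of exactly 2 of the 4 lists (left) and those with at least 10 fragments in both (right), purple for lists of the same treatment and gray for lists of opposite treatments. GDF9 replicate 2 and vehicle replicate 1 head both panels, with 6407 and 38 regions, against 6239 and 34 for the 2 GDF9 lists.

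Regions of GDF9 cells without a vehicle peak lay in the middle of their lists. Their median height was 5 fragments in replicate 1 and 6 in replicate 2, and their median rank fell at 44.1% and 42.1% of the list. The 6407 regions of GDF9 replicate 2 and vehicle replicate 1 alone ranked alike, at 42.4% and 43.2%. By contrast, the 1162 regions of all 4 lists had median heights of 10 to 13 fragments and median ranks at 1.25% to 2.26%. They were also present elsewhere, with a median of 6 of the 8 SMAD2 and SMAD4 lists of this line and 9 of the 12 lists of the Smad2HA/+ line. Of the 6239 regions, 27.8% had no peak in any of these 20 lists, against 0.43% of the 1162.

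All of the 34 tall regions of GDF9 cells without a vehicle peak were present in at least 1 of those 20 lists, 18 of them in 10 or more. In a list of the Smad2HA/+ line, which carries no PA tag and was profiled for SMAD2, SMAD3 and HA, 25 were present. Regions of all heights were often present there too, with a median of 1 list of that line over all 6239. In none of the 20 lists were 27.8% of the 6239, 40.4% of the 2243 regions of both vehicle lists alone and 26.6% of the 6407. None of the 34 lay on an H3K27ac region, where 1.07% of all 6239 regions of both GDF9 lists alone lay. Of the 21 tall regions of vehicle cells, 17 were present in at least 1 other list, 1 in 10 or more and 12 in the other line, and 1 lay on H3K27ac. Of the 38 of GDF9 replicate 2 and vehicle replicate 1 alone, 33 were present in at least 1 other list, 10 in 10 or more and 24 in the other line. In the other mixed pairs 1 of 16, 1 of 8 and 1 of 14 were present in 10 or more. The highest-ranking GDF9 regions were chr1:103238912-103240752, which overlaps Gm18728 (19 and 30 fragments), and chr14:60040560-60041548, in an intron of Atp8a2, a gene for a phospholipid flippase (9 and 21 fragments). Both had 0 vehicle peaks and were present in 4 of the 8 other lists of this line and all 12 of the other line. The next 3 were intergenic, at chr3:147666549-147668418 (6 and 9 fragments), chr7:37166814-37167640 (6 and 14) and chr3:15333608-15335316 (6 and 6). Among vehicle regions, the highest ranks were those of chr4:61844860-61846127, near Mup5 (7 and 5 fragments), and chr10:29142206-29144109, which overlaps an exon of Soga3 or Gm9996 (7 and 6). The next 3 were chr2:56800057-56800409, intergenic (10 and 8), chr7:109825022-109826333, which overlaps an exon of Scube2 and an H3K27ac region (6 and 6), and chr17:50959668-50960763, in an intron of Tbc1d5 (5 and 6). These GDF9 regions, chosen by rank, were thus 6 to 30 fragments high and these vehicle regions 5 to 10. Among all tall regions, heights reached 35 fragments for both GDF9 lists alone and 25 for both vehicle lists alone. For GDF9 replicate 2 and vehicle replicate 1 alone they reached 27.

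Purine runs were frequent at tall peaks in regions of both GDF9 lists alone. A peak was taken if it was tall in its own list, so these peaks are not limited to the 34 tall regions. A run was counted where at least 80% of the bases within 0.1 kb of the center of the maximum were A or G on 1 strand. It was present at 38.5% of 52 tall peaks of GDF9 replicate 1 and 31.1% of 161 tall peaks of GDF9 replicate 2 in regions of both GDF9 lists alone, against 0 of the windows 2 kb to either side. In regions of GDF9 replicate 2 and vehicle replicate 1 alone the shares were 17.0% of 147 and 6.25% of 64, and in regions of both vehicle lists alone 4.88% of 41 and 2.22% of 45. Tall peaks found in GDF9 replicate 2 and no other list had a run in 14.8% of 583 cases, those of GDF9 replicate 1 alone in 3.96%, of vehicle replicate 1 alone in 1.63% of 245 and of vehicle replicate 2 alone in 0 of 190. Over all tall peaks the runs took 5.72% and 10.6% with GDF9 and 2.72% and 0.237% with vehicle, so the groups did not overlap (exact permutation p = 0.333, the smallest possible). Over peaks of all heights they took 0.794% and 1.33% with GDF9 and 0.544% and 0.103% with vehicle. The part of these repeats in the difference between treatments was not tested. This measure was chosen after its values had been seen.

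At the 1162 regions of all 4 lists the heights followed each other closely. Spearman's rho across regions, which share their libraries, was 0.86 for the GDF9 replicates, 0.78 for the vehicle replicates, and 0.87 for GDF9 replicate 2 with vehicle replicate 1. It was 0.74 to 0.78 for the 3 pairs with vehicle replicate 2. The region of highest rank, chr2:98666139-98667411 at Gm10800, had 1057883 and 1522206 fragments with GDF9 and 1373646 and 1231890 with vehicle, and the other 4 of the top 5, at chr9:2999990-3038571, chr14:19415425-19419713, chr2:98661945-98663073 and chr12:3109510-3110337, were likewise between 30245 and 205425 fragments high in every list. All 5 windows were masked as repeats over 94.2% to 100% of their bases, and the regions were present in all 20 other SMAD and HA lists. Fragments that could come from several copies of a repeat cannot be assigned to one of them, and their heights are therefore uncertain.

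Ranks of total signal at the shared regions split about evenly by treatment. Both GDF9 ranks were above both vehicle ranks at 179 regions, and the reverse was true of 214, that is, 15.4% and 18.4% of the 1162. Each outcome is 1 of the 6 arrangements of 2 libraries against 2, so shares near these would also arise with no difference between treatments. The median GC content at the maximum was 37.8% in the 179, 45.3% in the 214 and 40.8% in all 1162. Chromosome X held 12.8%, 5.61% and 8.95% of them. The part of base composition in these rank differences was not tested. Only 4 regions, all higher with GDF9, had mean ranks more than 4 times apart.

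**Figure D4:**
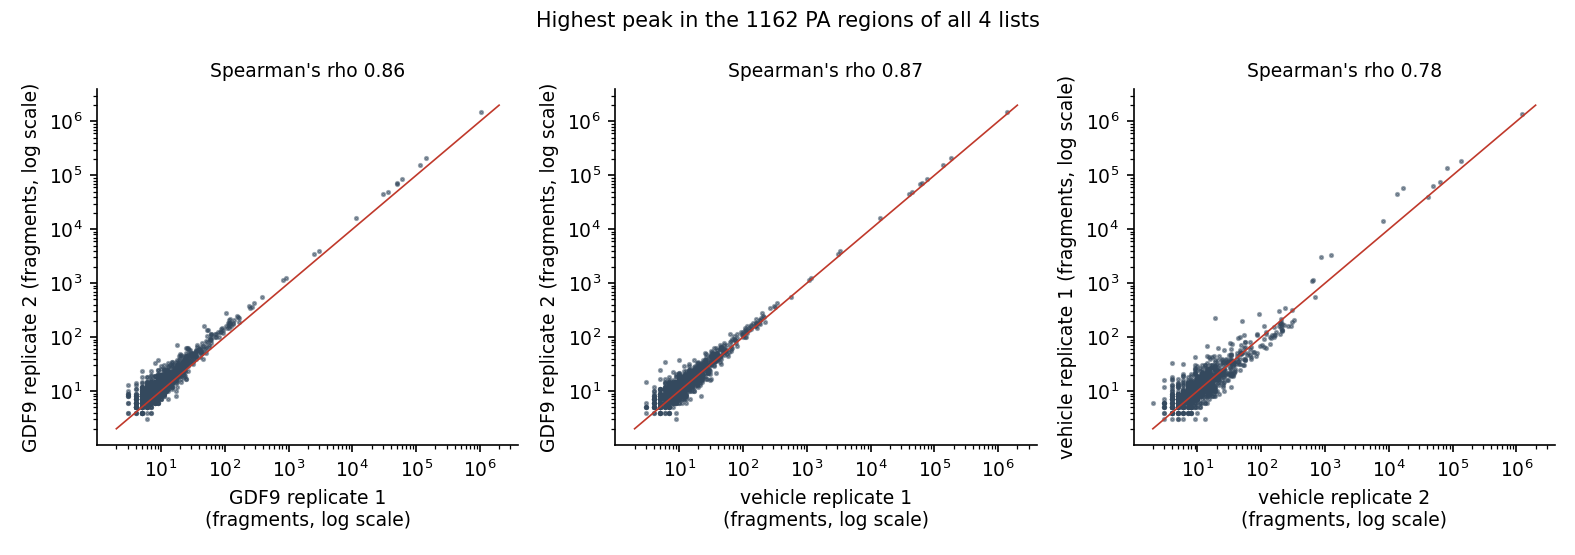
Height of the highest peak in each of the 1162 PA regions of all 4 lists, in fragments on log axes, for GDF9 replicates 2 and 1, GDF9 replicate 2 and vehicle replicate 1, and both vehicle replicates; the line marks equal heights. The points spread least in the middle panel (Spearman's rho 0.87) and most in the right panel (0.78).

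Tall regions were clustered. Of 451 regions with at least 10 fragments in all 4 lists, 277 (61.4%) lay in 19 windows of 1 Mb that held 5 or more each, led by chromosome 5 from 15 to 16 Mb (49 regions), chromosome 4 from 147 to 148 Mb (28) and chromosome 11 from 3 to 4 Mb (22). The median region of the 451 was present in 19 of the 20 other SMAD and HA lists, and 54 (12%) lay on H3K27ac regions. Within 3 kb of a start site lay 33.5% of them.

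H3K27ac, a mark of active promoters and enhancers, was rare under PA peaks. Peaks on H3K27ac regions of vehicle-treated cells of the same line made up 2.06% and 1.99% of the GDF9 lists and 2.17% and 3.97% of the vehicle lists. Within 3 kb of a start site lay 11% and 11.4% of peaks with GDF9 and 11.4% and 16.4% with vehicle, against 12% of the bases of these chromosomes. Neither comparison overlapped between groups, with differences of −1.05 and −2.67 percentage points (exact permutation p = 0.333 for each). In both, vehicle replicate 1 lay close to the GDF9 libraries and vehicle replicate 2 stood apart, and without it the differences were −0.15 and −0.19 percentage points. By comparison, SMAD2 lists of the same line had 5.56% to 8.19% of peaks on H3K27ac and SMAD4 lists 15.6% to 18.2%. The SMAD and HA lists of the other line had 20.5% to 35.9%. Their peaks were wider, with medians of 1265 to 1784 bp, and those of the SMAD4 lists had medians of 592 to 824 bp. The part of width in these shares was not tested, and the share of the genome on H3K27ac regions is not given here.

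Partner proteins of SMAD3 met PA peaks in overlapping shares. SMAD4, which joins it in the nucleus, had regions (both replicates of either treatment, same line) under 2.83% and 2.47% of PA peaks with GDF9 and 2.57% and 2.78% with vehicle (difference −0.02 percentage points, exact permutation p = 1, and 0.08 without vehicle replicate 2). The SMAD2 reference was broader, as it held the peaks of any single SMAD2 list of the same line in either treatment. Its shares are therefore not on like terms with those of SMAD4. SMAD2 peaks met 23.8% and 26.8% with GDF9 and 24.7% and 15.6% with vehicle (exact permutation p = 0.667). Without vehicle replicate 2 the difference was 0.601 in place of 5.17 percentage points. At 30 fragments or more, SMAD4 regions met 93.8% to 99.3% of PA peaks in each list, and SMAD2 peaks 99.6% to 100%. Peaks of this height also recurred in the other PA lists of either treatment, and 44.7% to 52.6% of the bases at their maximum were masked repeats. Whether SMAD4 joins SMAD3 at these places was not tested.

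The SMAD core was not more frequent at the maximum than beside it in 3 of the 4 lists. CAGAC, read on both strands, was present in 28.1% and 28.4% of the windows within 0.1 kb of the center with GDF9, against 30.5% of the windows 2 kb to either side in both lists. In vehicle replicate 1 it was present in 30.1% against 31.2%, and in vehicle replicate 2 in 41.7% against 35.7%. The excess was thus −2.42 and −2.12 percentage points with GDF9 and −1.11 and 6.02 with vehicle (exact permutation p = 0.333). Without vehicle replicate 2 the difference of the excess was −1.16 in place of −4.73. GC content moved in the same order, with 36.5% and 37.0% at the maximum with GDF9 and 38.1% and 47.9% with vehicle (exact permutation p = 0.333, difference −6.24 and, without vehicle replicate 2, −1.30 percentage points). The GC-rich core GGCGC was present in 1.51% and 1.478% of windows with GDF9, against 2.29% and 2.37% beside them. With vehicle it was present in 1.84% of windows of vehicle replicate 1 and 6.80% of vehicle replicate 2, against 2.46% and 4.34% beside them. The GATA-type core AGATAA, rich in A and T, was present in 17.4% and 17.0% with GDF9 and 16.4% and 8.64% with vehicle, against 14.8% in both GDF9 lists and 14.6% and 11.9% beside the windows. All cores were read on both strands. The part of base composition in these shares was not tested. The 10 planned comparisons of list properties had Benjamini-Hochberg adjusted p from 0.833 to 1.

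**Figure D5:**
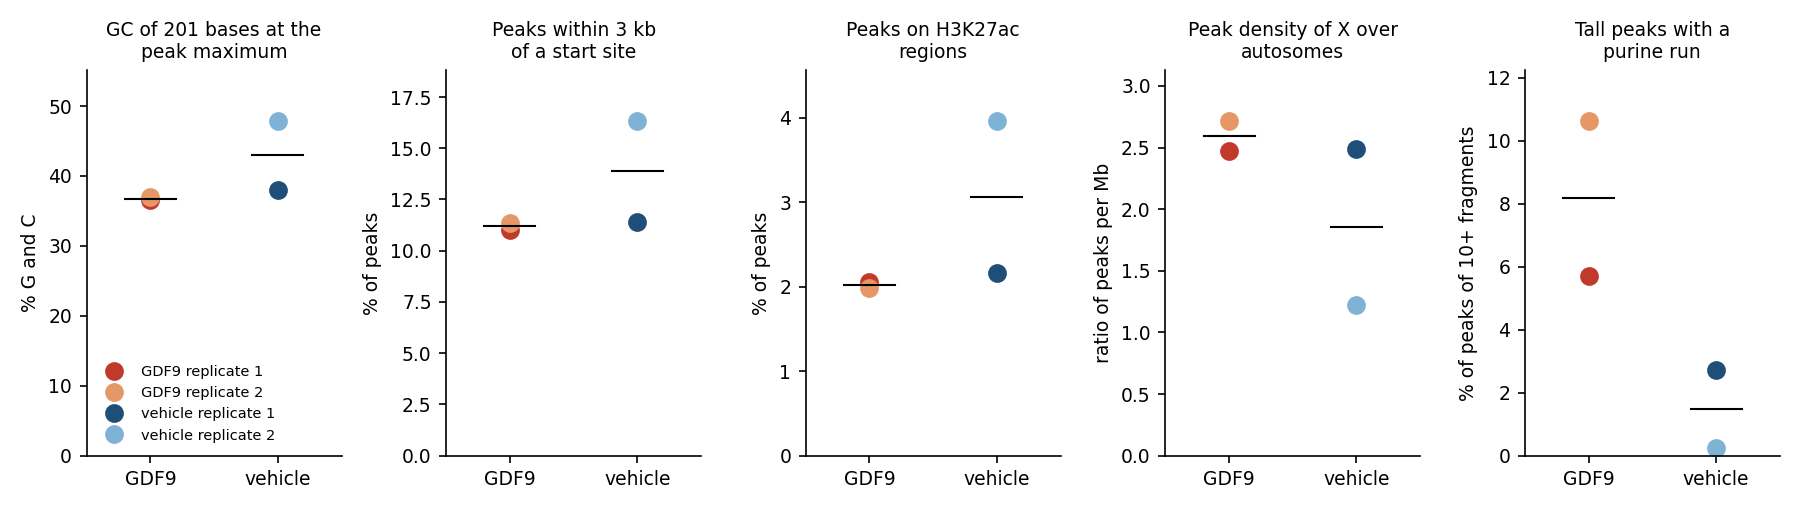
Properties of the 4 PA lists by treatment: GC content at the maximum, share of peaks within 3 kb of a start site, share on H3K27ac regions, ratio of peak density on chromosome X to that on autosomes, and share of tall peaks with a purine run. Points are libraries and bars are means of 2; vehicle replicate 2 stands apart in the first 4 panels (GC 47.9% against 36.5% to 38.1%).

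Chromosome X was densely covered in 3 of the 4 lists. It held 70.7 and 80.01 peaks per Mb with GDF9 and 73.2 and 28.4 with vehicle, where the autosomes held 28.6, 29.4, 29.4 and 23.2. The ratio of both was 2.47 and 2.72 with GDF9 and 2.49 and 1.22 with vehicle. X peaks were as low as others, with a median height of 5 or 6 fragments. The SMAD2 lists of the same line had ratios of 1.42 to 2.18, the SMAD4 lists 0.593 to 0.815 and the SMAD and HA lists of the other line 0.641 to 1.07. The X share of peaks was 14.4% and 15.7% with GDF9 and 14.5% and 7.71% with vehicle, so the groups overlapped (exact permutation p = 0.667).

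PA regions were counted at listed genes of granulosa cells, within 3 kb of a start site or in the gene body. Of 21755 protein-coding genes, 6.43% had a region of GDF9 cells and 4.19% of vehicle cells, so that in lists of 16 to 25 genes a count of 0 or 1 is near these shares. In the list of cumulus expansion and ovulation 1 of 16 genes had a GDF9 region, and 0 of 16 a vehicle region. This was Cd44, the receptor for hyaluronan, with chr2:102867838-102868373 in an intron (6 and 13 fragments with GDF9, 5 and 0 with vehicle). The window is 100% purines and was present in all 12 lists of the Smad2HA/+ line. Ptgs2, the enzyme that makes prostaglandin precursors, had peaks in single lists that did not form a region (up to 7 and 5 fragments with GDF9, 6 and 0 with vehicle), and so did Has2, the hyaluronan synthase (4 and 6 against 4 and 0). Ptx3, which stabilizes the cumulus matrix, had 0 and 3 against 0 and 6 fragments, and Tnfaip6, which cross-links it, 0 and 6 against 0 and 0.

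Of 22 feedback and target genes of SMAD2/3, 0 had a GDF9 region and 1 a vehicle region. The latter was Ldlrad4, an inhibitor of SMAD activation, with an intronic region of 3 and 4 fragments and 0 GDF9 peaks in it. Smad7, the inhibitory SMAD, had peaks only in vehicle replicate 2 (up to 6 fragments), Pmepa1, another inhibitor, only in GDF9 replicate 1 (4 fragments), and Fst, which binds activins, up to 5 fragments in GDF9 replicate 2 and 6 in vehicle replicate 1. Receptors and ligands of the pathway had regions in 0 of 18 genes for either treatment. Of 25 genes of granulosa cell identity and hormone synthesis, Runx2, a transcription factor, had 1 vehicle region (3 and 5 fragments). Of 20 immediate early genes, Nr4a3, a nuclear receptor, had 1 GDF9 region (4 and 4 fragments, and 4 in vehicle replicate 2). The ranks of these 3 regions lay between 13036 and 79423 in lists of 60133 to 83572 peaks.

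Of 18 genes the study names, 3 had a GDF9 region and 3 a vehicle region, and since the study chose them on these samples they are not independent of the data. Regions were counted over whole genes, and of these Lama2 spans 639.7 kb, Mapk10 303 kb, Col24a1 259.5 kb and Lama1 125 kb, against a median of 17.4 kb for protein-coding genes. Lama1, a laminin subunit of basement membranes, carried the tallest, in an intron, with 54 and 133 fragments with GDF9 and 126 and 118 with vehicle. Treatments overlapped there, the region was present in all 20 other SMAD and HA lists, and it was not on H3K27ac. Lama2, a further laminin subunit, had 2 GDF9 regions without a vehicle peak (4 and 7, and 4 and 3 fragments). Col24a1, a collagen gene, had 1 of GDF9 cells (7 and 7) and 1 of vehicle cells (5 and 5) at different places. Mapk10, a stress-activated kinase, had 1 vehicle region (4 and 7). Of the markers of other cell types, 2 of 5 of leukocytes, 1 of 5 of endothelium and 0 of 5 of theca, 5 of stroma and 7 of oocytes had a region. Ptprc, of leukocytes, had 2 GDF9 regions (4 to 6 fragments), and Adgre1, of macrophages (5 and 5), and Pecam1, of endothelium (3 and 3), 1 vehicle region each.

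RNA of the same line was used to set regions beside expression. Of 12597 genes tested with limma, 307 (2.44%) were called higher with GDF9 and 89 (0.707%) lower, or 396 (3.14%) in all, where a call needed a change of over 0.18 on the log2 scale with an adjusted p below 0.05. Without vehicle replicate 1 the calls numbered 210. The granulosa markers were present, with 9 of 10 at a mean of at least 10 normalized counts (Cyp19a1 was below), and their summed level was 34672 and 34965 with GDF9 and 33585 and 34689 with vehicle. Of the theca markers, Insl3 was at 0 in all libraries, 2 of 5 reached 10, and Aldh1a1 was high, at a mean of 40858. Through Aldh1a1 the theca markers summed to 38684 and 40098 with GDF9 and 42453 and 42334 with vehicle, above the granulosa markers in each library. Stroma markers summed to 1484 to 1525, mostly Col1a1, and endothelial, leukocyte and oocyte markers to at most 88.0 in any library.

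Genes with a PA region near the start site were set beside the shares of all genes, 2.44% higher and 0.707% lower. Of 85 tested genes within 3 kb of a GDF9 region 2 (2.35%) were higher and 1 (1.18%) lower (median log2 fold change 0.00), of 50 with a region without a vehicle peak 2 and 0 (−0.02), and of 21 with a region of all 4 lists 0 and 0 (−0.02), against a median of −0.01 for all genes. Of 81 near a vehicle region 5 (6.17%) were higher and 0 lower (0.02), and of 51 near one without a GDF9 peak 4 (7.84%) and 0 (0.04). Including gene bodies, 9 of 485 genes with a GDF9 region were higher and 3 lower, and 8 of 346 with a vehicle region were higher and 2 lower. These counts are small, and no list was tested.

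Of the immediate early genes 7 of 17 tested were higher, among them the transcription factor genes Fos (log2 fold change 0.91, SE 0.07) and Egr1 (0.73, SE 0.06), and 0 lower. Fos had a PA peak only in GDF9 replicate 1 (6 fragments), and Egr1 only in vehicle replicate 2 (6 fragments). Of the feedback and target genes 4 of 21 were higher and 0 lower, with Pmepa1 at 0.40 (SE 0.06) and Fst at 0.37 (SE 0.06). Of the cumulus genes 3 of 13 were higher and 1 lower. Here Ptx3 (0.85, SE 0.22) lost its call without GDF9 replicate 1 (limma adjusted p = 0.136) or vehicle replicate 1 (0.227), and Has2, at 1.05, was not called (limma adjusted p = 0.0566) but was with the replicate number as a block (0.0164), with 10 added before the log (0.0479), without GDF9 replicate 1 (0.0171) or without vehicle replicate 2 (0.0268). Of the granulosa genes 3 of 22 were higher and 5 lower. Esr2, the estrogen receptor of granulosa cells, was higher (0.33, SE 0.08). It had peaks of up to 6 and 18 fragments in the GDF9 lists, which did not overlap to form a region, and 0 with vehicle. Igfbp5, which binds insulin-like growth factors, was lower (−0.53, SE 0.06), with a peak of 4 fragments in vehicle replicate 2 alone. Esr2 lost its call without GDF9 replicate 1 (limma adjusted p = 0.138), vehicle replicate 1 (0.188) or vehicle replicate 2 (0.0628). Of the receptors and ligands 0 of 17 were called, and of the genes the study names 5 of 16 were higher and 2 lower.

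Malat1, a nuclear noncoding RNA, had the largest increase among genes near a vehicle region, with 28822 and 26912 normalized counts with GDF9 and 10976 and 11150 with vehicle (log2 fold change 1.33, SE 0.03, limma adjusted p = 2.79e-23). Its region had 7 and 0 fragments with GDF9 and 6 and 5 with vehicle. Spon1, an extracellular matrix protein (0.72, SE 0.13), and Ogt, which adds N-acetylglucosamine to proteins (0.30, SE 0.05), had vehicle regions of 4 and 5 and of 5 and 5 fragments, and 0 GDF9 peaks in them. Or4a78, an olfactory receptor gene (1.31, SE 0.22), had a GDF9 region near its start (6 and 5 fragments), and its reads are uncertain because such genes have near-identical copies. Vmn2r12 (2.60, SE 0.51), of a likewise copied family of vomeronasal receptors, had a region of 5 and 7 fragments with GDF9 and 4 and 0 with vehicle. Malat1, Spon1, Ogt and Or4a78 kept their calls without any 1 library. The log2 fold change of Vmn2r12 was 1.72 without vehicle replicate 1 and 3.47 without vehicle replicate 2, it fell under the filter on low values without GDF9 replicate 1, and it was not called with no such filter (limma adjusted p = 0.065). In the gene body, Lama1 (0.42, SE 0.03) and Zc3h7a, a zinc finger gene (0.41, SE 0.06, 82 to 165 fragments in the 4 lists), were higher and had regions of all 4 lists. Dst, a cytoskeletal linker (0.25, SE 0.04), had a GDF9 region of 4 and 6 fragments without a vehicle peak, and Zfp182, a zinc finger gene (0.46, SE 0.12), one of 4 and 5 fragments. Zfp182 lost its call without GDF9 replicate 1 (limma adjusted p = 0.25), vehicle replicate 1 (0.0760) or vehicle replicate 2 (0.133), whereas Lama1, Zc3h7a and Dst kept theirs. Etl4 (0.26) lost its call without GDF9 replicate 1 (limma adjusted p = 0.174), vehicle replicate 1 (0.135) or vehicle replicate 2 (0.192), Rbbp6 (0.22) without GDF9 replicate 1 (0.0547) or vehicle replicate 2 (0.28), and Huwe1 (0.20) without vehicle replicate 2 (0.177). By size, Huwe1 (0.14) and Timp3 (0.20, then 0.16) also lost theirs without GDF9 replicate 1.

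The 5 genes called lower with a region each lost the call without 2 or 3 of the libraries in turn. Sspn, a membrane protein of the dystrophin complex, had a log2 fold change of −0.50 (SE 0.14) and a region of 6 and 15 fragments with GDF9 and 0 and 10 with vehicle, and lost its call without GDF9 replicate 1 (limma adjusted p = 0.18) or vehicle replicate 1 (0.546). Cobll1 (−0.20, SE 0.04, region of 5 and 9 fragments) fell short without vehicle replicate 1 (0.197), and without GDF9 replicate 2 by its size (−0.17). Sdc2, a cell surface proteoglycan (−0.19, SE 0.05, 4 and 5 fragments), lost its call without GDF9 replicate 1 (0.0745), vehicle replicate 1 (0.308) or vehicle replicate 2 (0.173). Both had 0 vehicle peaks in these regions. Tbc1d8b (−0.22, SE 0.06) and Plekho2 (−0.22, SE 0.06) had vehicle regions of 4 and 4 fragments each, and lost their calls without GDF9 replicate 2 (limma adjusted p = 0.265 and 0.132), vehicle replicate 1 (0.418 and 0.243) or vehicle replicate 2 (0.1 and 0.124).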

How the data were processed

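CUT&RUN was measured in 40 libraries and RNA in 4. Per the study's methods, CUT&RUN reads were aligned by the authors to mm10 with Bowtie2, coverage was scaled to E. coli spike-in fragments, and peaks were called per library with SEACR. Whether IgG served as control is not given in the sources used here, and IgG libraries were not used here. The deposited lists hold total and maximum signal (scaled coverage) per peak. The signal divided by its step (100000 over the E. coli fragments) was whole within 0.05 steps for 99.99% of peaks, which gave heights. The deposited RNA table holds signal values, that is, the authors' counts (STAR 2.7.11b, featureCounts 2.1.1) divided by size factors. Dividing by the step gave whole reads for 100% of values in each library (8827825 to 11416005 reads), and 3 columns that have no header were left out. Of 27179 entries 1314 had no values.

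Overlaps (at least 1 bp), windows and repeat masking used GRCm38.p6 from RefSeq, whose chromosomes equal mm10, and genes GENCODE vM21, with Python 3.11.15, pandas 2.3.3 and scipy 1.17.1. RNA was tested on log2(value + 1) at a mean of at least 10 with limma 3.58.1 in R 4.3.3, and edgeR 4.0.16 (406 genes called) and DESeq2 1.42.0 (141) ran on the recovered reads as alternatives. The overlap code and the RNA fit were tested on simulated data. Heights and reads cover counting error only.

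Members and lists were chosen with earlier results of these data known. The rule named the listed genes with a region, the 5 regions of each set with the best worst rank, and the called genes with a region that had the 5 largest changes in each direction. Listed genes without a region, and clusters of tall regions, were named after their values were seen. Replicate numbers did not pair the RNA libraries (correlation of deviations 0.005). Alternatives were other overlaps, thresholds, windows, list sizes and left-out libraries.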

Additional observations from a re-analysis of the deposited data

How the results depend on the processing

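Peak number, median width and SMAD4 share turned with the library left out. Leaving out each library in turn, the difference in peak number (GDF9 minus vehicle) ranged from −575 to 21717, that in median width from −53.5 to 132 bp and that in the SMAD4 share from −0.206 to 0.159 percentage points (0.08 without vehicle replicate 2). The other differences kept their direction, but without vehicle replicate 2 those in GC content (−1.30 points), promoter share (−0.19), H3K27ac share (−0.15) and core excess (−1.16) were at their smallest, and the median height was 5 fragments throughout. With at least 50% of both peaks shared, GDF9 cells had 4546 regions and vehicle cells 2086, 362 were in all lists, and 74.0% and 60.5% lacked a peak of the other treatment. In the top 50% of each list by maximum signal the regions were 4151 and 2184, and the shares 51.2% and 32.5%. With the 60000 peaks of highest total signal the shares were 61.2% and 50.1%. With peaks of at least 10 fragments, an alternative chosen after seeing the data, 794, 689 and 450 regions remained and the shares were 12.7% and 8.42%, and without chromosome X, likewise chosen later, the GDF9 share was 63.2%. A single replicate in place of both gave 80128 to 83572 regions with GDF9 and 60133 to 82425 with vehicle, and 1 list searched instead of both gave shares of 68.0% to 83.8% and 58.5% to 63.9%. The 396 genes called became 187 without a filter on low values, 141 with DESeq2 and 210 to 586 with 1 library left out, lowest without vehicle replicate 1. With the replicate number as a block, 535 genes were called. In all, 70 recomputed results counted as unchanged, 28 moved and 4 reversed. For the 10 planned comparisons of list properties, unchanged means only that the direction did not reverse, whatever the size of the difference. For regions, overlap by rank and the number of genes called, it means a value near the main one. Single genes kept their side of the threshold in 192 cases, lost their call in 53 and gained one in 4. The median peak rests on 5 fragments, which limits what heights can show. The causes of these changes were not tested.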
